A study of Homo sapiens with 2 samples.

Results

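Cytosolic translation initiation and elongation factors, the proteins that start and extend every polypeptide on the ribosome, were followed at the RNA level in HCT116 cells labelled CREB1 knockout and CREB1 wild-type. They were taken by gene symbol: protein-coding genes whose symbols begin with EIF1 to EIF6, EEF1 or EEF2, leaving out the kinases EIF2AK1 to EIF2AK4 and Y-linked genes. This gave 64 of the 57820 gene identifiers in the table. Of these, 59 had a mean level of at least 1 CPM (counts scaled to library size) over both libraries and are called expressed. The choice rests on names, and a few members are named for such a factor but act on it or elsewhere, as stated where they appear.

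The groups were CREB1 knockout HCT116 cells (1 library) and CREB1 wild-type HCT116 cells (1 library). HCT116 is a human colorectal carcinoma line, and CREB1 regulates genes through cAMP response elements in their promoters. The knockout cells were 1 clone, selected after a plasmid with nickase Cas9 and CREB1 guides, so the effect of the CREB1 edit and the traits of that clone cannot be told apart. Both lines grew in the same serum-containing medium, and RNA depleted of ribosomal RNA was sequenced strand-specifically.

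Initiation begins when eIF2 brings the initiator tRNA, bound with GTP, to the small ribosomal subunit, where eIF1, eIF1A, eIF3 and eIF5 help to find the start codon. The mRNA is brought in by eIF4F, made of the cap-binding protein eIF4E, the scaffold eIF4G and the helicase eIF4A. eIF2B recharges eIF2 with GTP, and 4E-BP proteins keep eIF4E from its scaffold until mTORC1 phosphorylates them. eEF1A then delivers aminoacyl-tRNAs and eEF2 moves the ribosome along the mRNA. Most of these proteins are needed by every growing cell.

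The expected counts summed to 31178312 in the knockout library and 34511071 in the wild-type library. CREB1 itself had 499 counts in the knockout and 614 in the wild-type library, a log2 ratio of -0.23, and such a whole-gene count cannot check the genotype, since short edits need not alter it. The epithelial markers EPCAM, CDH1, KRT8, KRT18 and KRT19 were all at 26.8 CPM or more in both libraries, while VIL1 had 9 knockout and 12 wild-type counts. Of 5 markers of other cell types, PTPRC, CD3E, LUM and COL1A2 had 0 counts in both libraries, which allows up to 0.0938 CPM in the knockout and 0.0892 CPM in the wild-type library, and DCN had 1 knockout and 0 wild-type counts.

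Levels below are CPM scaled between the libraries by TMM, and each log2 ratio is knockout over wild-type. With 1 library per group no test across replicates was possible. Each ratio carries an exact 95% counting interval, which leaves out differences between cultures and preparations. A call of higher or lower needed a ratio past a stated size and an interval that excluded no difference. The sizes were 2-fold and, as the smaller threshold, a log2 ratio of 0.3219. A level is a mean over all cells of a culture, so a difference in every cell and a difference in some cells cannot be told apart.

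The translation factors were called about as often as protein-coding genes of at least 10 CPM. None of the 59 expressed members was called at 2-fold, against 2.92% of all expressed genes, 1.28% higher and 1.64% lower. Most members are abundant, and among protein-coding genes of at least 10 CPM the share was 1.12%, 0.677% higher and 0.443% lower, which is less than 1 gene in 59. At the smaller threshold 13 members were called (22.0%), against 27.2% of all expressed genes. Of these, 9 members were lower (15.3%, against 13.1% of all expressed genes) and 4 were higher (6.78%, against 14.1%). Among the protein-coding genes of at least 10 CPM, 22.4% were called at this threshold, 10.2% lower and 12.2% higher. Those called lower were EIF4EBP1, EIF4A3, EIF4G1, EIF2B3, EIF2B1, EEF1AKMT2, EIF5A2, EIF3E and EIF5A. Those called higher were EIF1B, EIF3CL, EIF5B and EIF4ENIF1. With total-count scaling, which moved all ratios by 0.073 upwards, the split was 4 lower and 6 higher.

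Small differences leaned toward lower levels in the knockout library. The median log2 ratio of the expressed members was -0.12, and 40 of 59 lay below 0, against a median of 0.01 and 6285 of 12886 over all expressed genes. With total-count scaling the median was -0.04 and 35 members lay below 0. Of the 46 members that were not called, 21 had intervals wholly below 0, 10 wholly above 0, and 15 included 0. Over all expressed genes not called these counts were 1597 below, 1582 above and 6203 including 0. Among protein-coding genes of at least 10 CPM they were 1450, 1440 and 3071. Whether an interval excludes 0 depends on depth, and these counts are those of TMM scaling only. Together the 64 members made up 2.12% of all counts in the knockout library and 2.21% in the wild-type library.

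**Figure D1:**
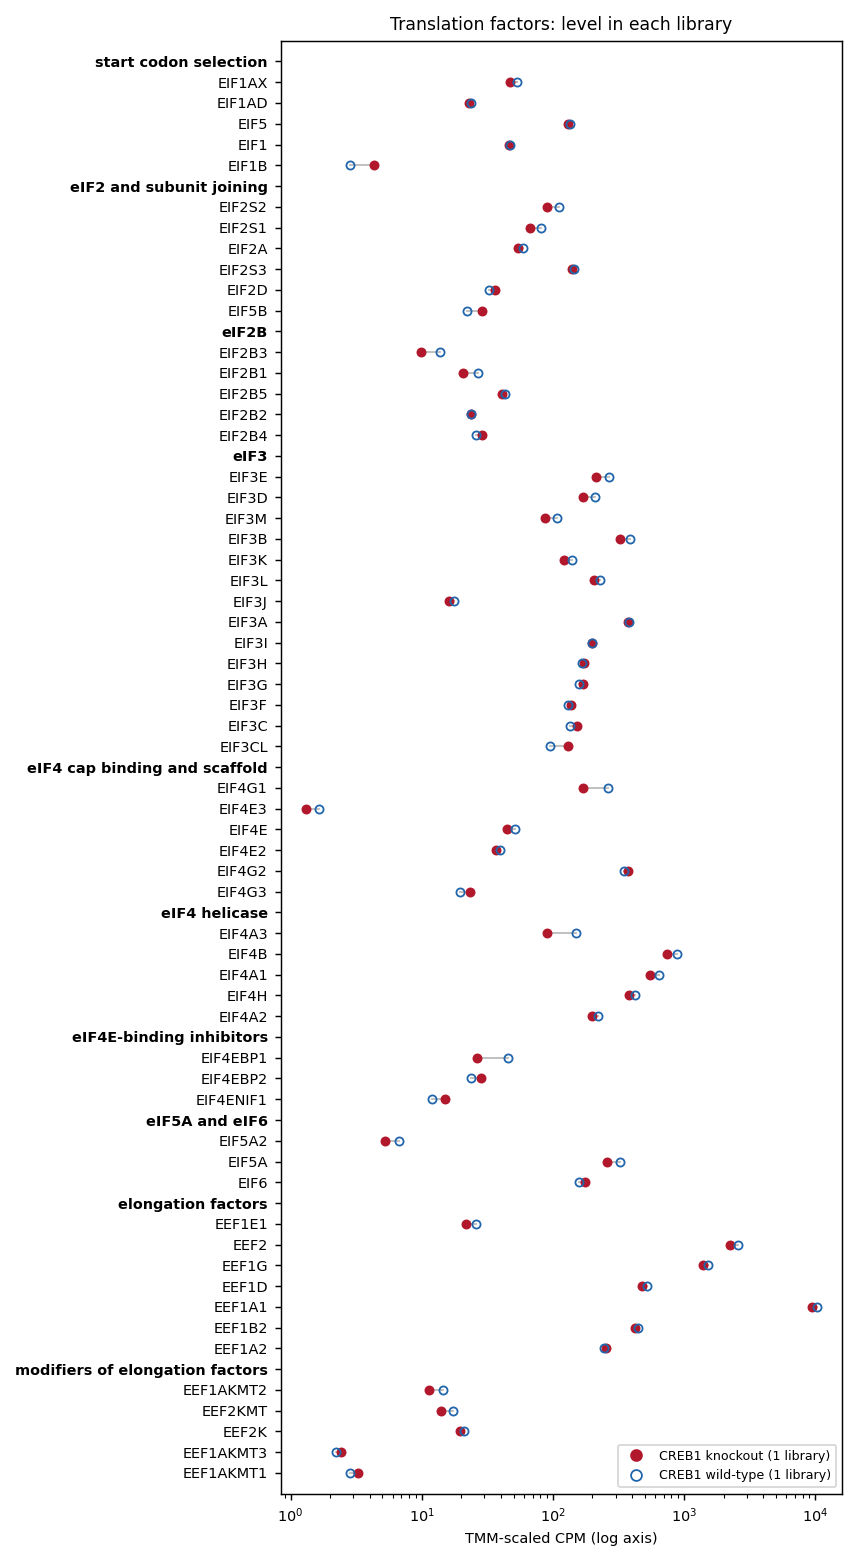
TMM-scaled CPM (log axis) of the 59 expressed translation factors, grouped by role, in the CREB1 knockout library (filled) and the CREB1 wild-type library (open). The points of most members nearly coincide, and the widest gaps are those of EIF4EBP1, EIF4A3 and EIF4G1, which were lower in the knockout library.

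**Figure D2:**
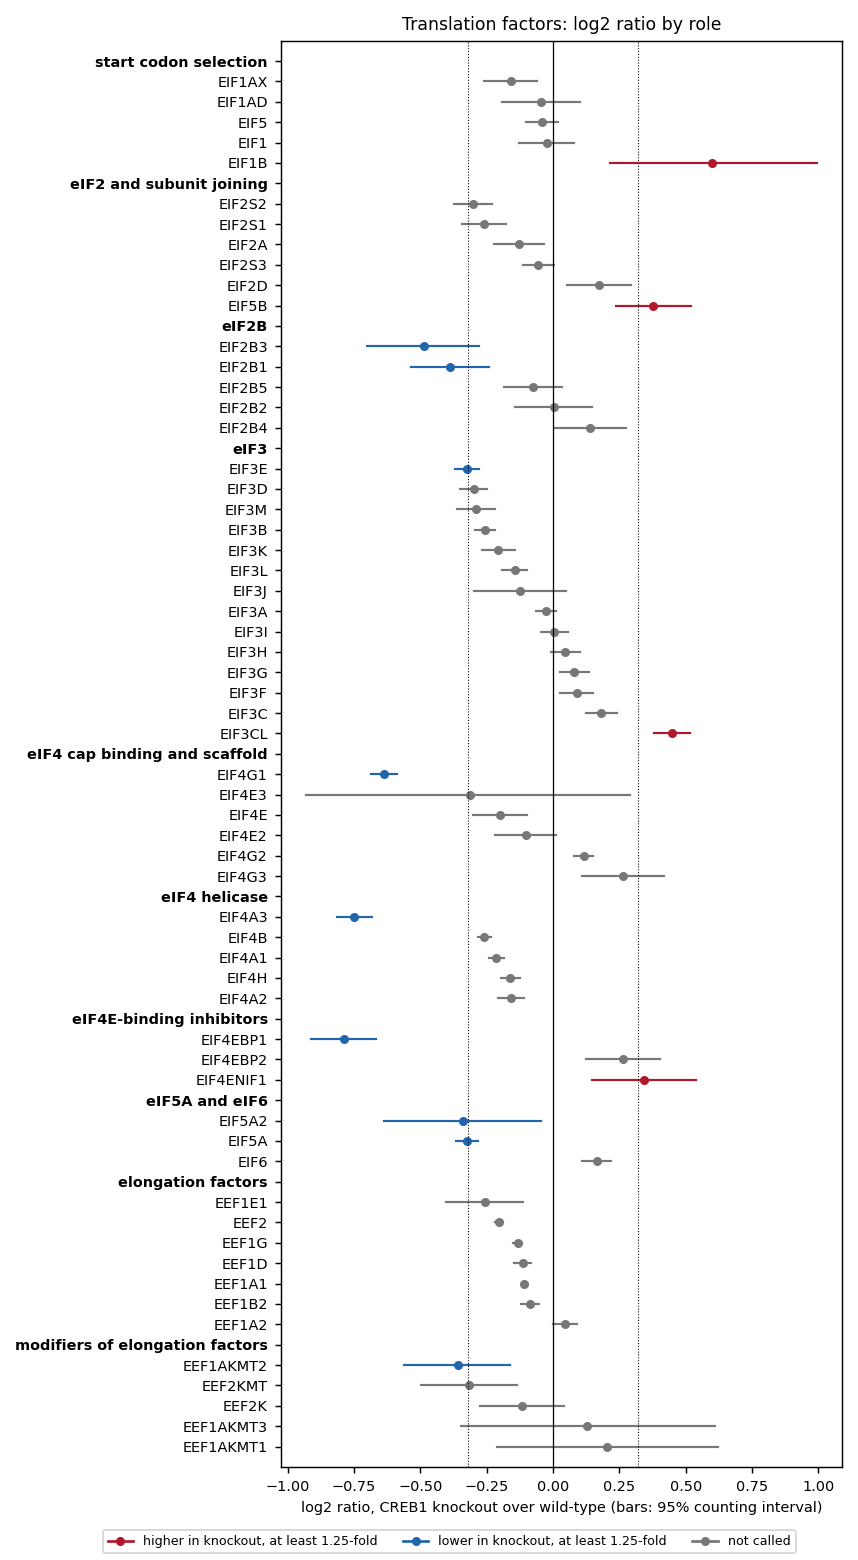
Log2 ratio of each expressed member, CREB1 knockout over wild-type, with its 95% counting interval; dotted lines mark the smaller threshold, 0.3219 in either direction. Of 59 members, 9 were called lower (blue) and 4 higher (red), and all ratios lay between -0.79 and 0.60.

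The 3 members with the lowest ratios were EIF4EBP1, EIF4A3 and EIF4G1, of which EIF4G1 is a part of eIF4F. EIF4EBP1, which encodes the eIF4E-binding inhibitor 4E-BP1 and is also known as a gene induced by ATF4, had 841 counts in the knockout and 1528 in the wild-type library. Its level was 26.3 CPM in the knockout and 45.4 CPM in the wild-type library. This made it 1.73-fold lower, with a log2 ratio of -0.79 (interval -0.91 to -0.67). Its relative EIF4EBP2 went the other way without reaching the threshold, with 902 knockout and 791 wild-type counts and a log2 ratio of 0.26 (interval 0.12 to 0.40). EIF4EBP2 did reach it with total-count scaling, at 0.34. EIF4ENIF1, whose product 4E-T binds eIF4E and takes part in mRNA silencing, was 1.27-fold higher with 481 knockout and 399 wild-type counts. That call was lost with DESeq2 size factors, where its log2 ratio was 0.3217, and after a correction for GC content and length, where it was 0.30.

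EIF4G1, the main scaffold that joins the cap-binding protein to eIF3, had 5422 counts in the knockout and 8865 in the wild-type library. At 170 CPM in the knockout and 263 CPM in the wild-type library, it was 1.55-fold lower, with a log2 ratio of -0.64 (interval -0.68 to -0.59). The related scaffolds were not lower. EIF4G2, a shortened relative that lacks the eIF4E-binding site, had 11957 knockout and 11614 wild-type counts, with a log2 ratio of 0.12 (interval 0.08 to 0.15). EIF4G3 had 746 knockout and 654 wild-type counts and a ratio of 0.26 (interval 0.11 to 0.42), and was called only with total-count scaling, at 0.34.

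The 3 expressed cap-binding proteins had ratios below 0, and none was called. EIF4E had 44.9 CPM in the knockout and 51.7 CPM in the wild-type library, a log2 ratio of -0.20 (interval -0.30 to -0.10). EIF4E2, which binds caps but represses translation, had a ratio of -0.10 whose interval, -0.22 to 0.01, included 0. EIF4E3 was barely expressed, with 42 knockout and 55 wild-type counts and a ratio of -0.31, whose interval, -0.93 to 0.29, included 0.

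All 5 helicase genes and their partners lay below 0, under each scaling tried. EIF4A3 stood apart with 2871 counts in the knockout and 5078 in the wild-type library, or 1.68-fold lower, with a log2 ratio of -0.75 (interval -0.82 to -0.68). Its product is a core part of the exon junction complex, which marks spliced mRNAs, rather than of eIF4F. The eIF4F helicase EIF4A1 had 550 CPM in the knockout and 638 CPM in the wild-type library, with a ratio of -0.21 (interval -0.24 to -0.18). EIF4A2 had a ratio of -0.16. EIF4B and EIF4H, which stimulate the helicase, had ratios of -0.26 and -0.16, and EIF4B was abundant, with 735 CPM in the knockout and 880 CPM in the wild-type library.

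EIF4A3 lies on chromosome 17 in a stretch where other genes were lower as well. Among its 40 nearest expressed protein-coding neighbours, 20 on each side in gene order, the median log2 ratio was -0.48 and 35 lay below 0. Next to it the picture was mixed, since RPTOR, 5 places away and the gene of an mTORC1 subunit, had a ratio of 0.23. For the other expressed members the median of the neighbours lay between -0.11 and 0.15. It was -0.05 around EIF4G1 and 0.10 around EIF4EBP1. The part of the chromosomal stretch in the EIF4A3 value was not tested.

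**Figure D3:**
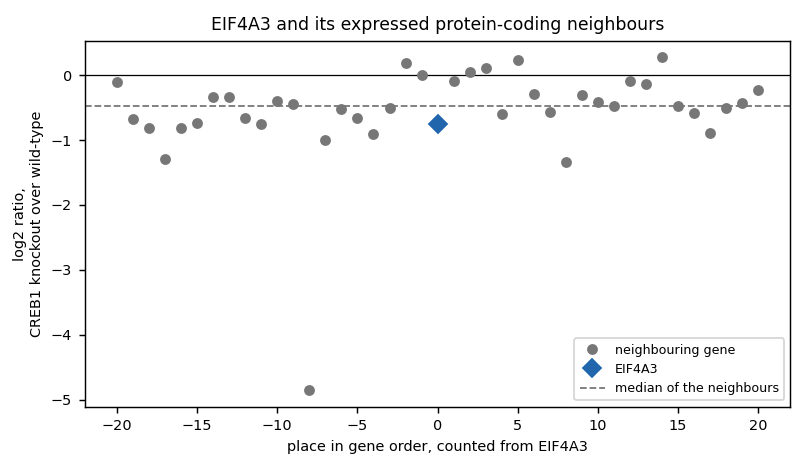
Log2 ratio, CREB1 knockout over wild-type, of EIF4A3 (diamond) and its 40 nearest expressed protein-coding neighbours (circles) by place in gene order. The median of the neighbours (dashed line) was -0.48, and 35 of the 40 lay below 0.

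Among the factors of start codon selection, only EIF1B was called. It had 137 counts in the knockout and 95 in the wild-type library, or 1.51-fold higher, with a log2 ratio of 0.60 and a wide interval of 0.21 to 0.99. Its close relative EIF1, which keeps the scanning ribosome open until a start codon is met, had 1468 knockout and 1571 wild-type counts and a ratio of -0.02 (interval -0.13 to 0.08). Per kilobase of transcript, the level of EIF1B was 7.36% of that of EIF1 in the knockout and 4.77% in the wild-type library. EIF5, which stimulates GTP hydrolysis by eIF2, had a ratio of -0.04. EIF1AD, placed in this group by its name and not by a known part in start codon selection, was also at -0.04. With total-count scaling EIF1, EIF5 and EIF1AD lay above 0, at 0.05, 0.03 and 0.03. EIF1AX, the X-linked gene of eIF1A, had a ratio of -0.16 (interval -0.26 to -0.06).

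The 3 subunits of eIF2 had ratios below 0 that did not reach the threshold. EIF2S1, the subunit phosphorylated in the integrated stress response, had 67.3 CPM in the knockout and 80.6 CPM in the wild-type library, a log2 ratio of -0.26 (interval -0.34 to -0.18). EIF2S2 had a ratio of -0.30 (interval -0.37 to -0.23), which became a call with DESeq2 size factors at -0.3230. EIF2S3, which binds GTP and the initiator tRNA, had a ratio of -0.06 and an interval that just included 0, and its ratio was 0.02 with total-count scaling.

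EIF5B, the GTPase that joins the large ribosomal subunit at the end of initiation, was called higher. It had 920 counts in the knockout and 745 in the wild-type library, with a log2 ratio of 0.38 (interval 0.24 to 0.52). EIF2A and EIF2D, which bind initiator or other tRNAs outside the main route, had ratios of -0.13 and 0.17.

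The 5 subunits of eIF2B did not move alike. EIF2B3, which encodes the gamma subunit of its catalytic part, had 313 counts in the knockout and 462 in the wild-type library and was 1.40-fold lower, with a log2 ratio of -0.49 (interval -0.70 to -0.28). EIF2B1, the alpha subunit of the regulatory part, had 658 knockout and 906 wild-type counts and was 1.31-fold lower (interval of the log2 ratio -0.53 to -0.24). With total-count scaling its log2 ratio was -0.31 and it was not called. The catalytic subunit gene EIF2B5 had a log2 ratio of -0.07, EIF2B2 a ratio of 0.003 and EIF2B4 a ratio of 0.14.

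The largest initiation factor, eIF3, was spread around 0. Its 14 genes had a median log2 ratio of -0.08, with 8 below and 6 above 0, and with total-count scaling the median was -0.002 and 7 lay on each side. EIF3E was just inside the threshold, with 6765 knockout and 8917 wild-type counts (log2 ratio -0.325, interval -0.37 to -0.28). It lost the call with total-count scaling, at -0.25, and after the GC and length correction, at -0.27. Just outside lay EIF3D (-0.30), EIF3M (-0.29) and EIF3B (-0.26). Of the subunits nearest to no difference, EIF3A, the largest scaffold of the complex, had 374 CPM in the knockout and 381 CPM in the wild-type library, and EIF3I had 198 CPM in the knockout and 197 CPM in the wild-type library. With total-count scaling EIF3A lay above 0, at 0.05, and with DESeq2 size factors EIF3I lay below 0, at -0.02. EIF3G, EIF3H and EIF3F had small positive ratios of 0.08, 0.05 and 0.09.

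EIF3C and EIF3CL are near-identical genes on chromosome 16, so how reads were shared out between them is unsure. EIF3CL had 4152 knockout and 3200 wild-type counts and was called higher at 1.37-fold, and EIF3C had 4887 knockout and 4535 wild-type counts with a log2 ratio of 0.18. Counted as 1 gene, they had 9039 knockout and 7735 wild-type counts and a log2 ratio of 0.30 (interval 0.25 to 0.34). So with TMM scaling the pair lay above the other subunits of the complex but under the threshold. Total-count scaling, which adds 0.073 to every ratio, would carry it past the threshold. EIF3J, a loosely bound subunit, had the lowest level per kilobase, 10.5 CPM in the knockout and 11.4 CPM in the wild-type library, against 42.5 to 160 CPM in the knockout and 31.1 to 200 CPM in the wild-type library over the other eIF3 genes.

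Both expressed eIF5A genes were called lower, as were 13.1% of all expressed genes. EIF5A, which carries the modified lysine hypusine and helps the ribosome past difficult peptide bonds such as those of proline, had 8213 counts in the knockout and 10819 in the wild-type library. Its log2 ratio was -0.324 (interval -0.37 to -0.28), just inside the threshold, and it was not called with total-count scaling, at -0.25. EIF5A2 had 168 knockout and 224 wild-type counts and a ratio of -0.34, with an interval of -0.64 to -0.05. It too was not called with total-count scaling, at -0.27. After the GC and length correction neither was called, with EIF5A at -0.29 and EIF5A2 at -0.27. EIF6, which keeps free large subunits from joining, had 5638 knockout and 5290 wild-type counts and a ratio of 0.17 (interval 0.11 to 0.22).

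EEF1A1, EEF2 and EEF1G were the most abundant members, and all the elongation factors had ratios under the threshold. EEF1A1 alone made up 45.9% of the members' counts in the knockout library and 45.2% in the wild-type library. It had 9504 CPM in the knockout and 10263 CPM in the wild-type library, a log2 ratio of -0.11 (interval -0.12 to -0.10). EEF2, the translocase, had 2219 CPM in the knockout and 2555 CPM in the wild-type library, with a ratio of -0.20 (interval -0.22 to -0.19). The subunits of the exchange factor that recharges eEF1A had ratios of -0.13 (EEF1G), -0.11 (EEF1D) and -0.09 (EEF1B2). EEF1E1, a scaffold protein of the aminoacyl-tRNA synthetase complex in spite of its name, had a ratio of -0.26. EEF1A2, known mainly from muscle and nerve and from some tumours, was the exception above 0, with 251 CPM in the knockout and 244 CPM in the wild-type library and a ratio of 0.05. In all, 6 of 7 lay below 0 with a median of -0.11, which was -0.04 with total-count scaling.

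None of the 7 elongation factors was called, against 22.4% of protein-coding genes of at least 10 CPM, and 7 genes are few for such a share. The narrow intervals of EEF1A1 and EEF2 reflect their many counts only. The table assigns 5186 knockout and 6108 wild-type expected counts to 131 pseudogenes named for members. That is 0.783% of the members' own counts in the knockout and 0.800% in the wild-type library. EEF1A1P5 took most of them, with 4123 in the knockout and 4781 in the wild-type library, and its log2 ratio of -0.14 was close to that of EEF1A1.

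Of the genes that modify elongation factors, EEF1AKMT2, a lysine methyltransferase of eEF1A, was called lower, with 362 counts in the knockout and 489 in the wild-type library (log2 ratio -0.36, interval -0.56 to -0.16). With total-count scaling the ratio was -0.29, and after the GC and length correction -0.31, and neither was called. EEF2KMT, which methylates eEF2, lay just outside the threshold at -0.316, with 445 knockout and 583 wild-type counts, and was called with DESeq2 size factors and after the GC and length correction, both at -0.34. EEF2K, the kinase that inactivates eEF2, had 621 knockout and 709 wild-type counts and an interval that included 0. EEF1AKMT1 and EEF1AKMT3 had 104 or fewer counts in either library and intervals that included 0.

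The 5 members under 1 CPM were EIF2S3B, EIF4E1B, EIF4EBP3, EIF5AL1 and the readthrough gene EEF1E1-BLOC1S5. EIF2S3B had 13 knockout and 27 wild-type counts, EIF4E1B had 7 knockout and 4 wild-type counts, and EIF5AL1 had 18 knockout and 17 wild-type counts. EIF4EBP3 had 16 knockout and 6 wild-type counts, a log2 ratio of 1.41 with an interval of 0.06 to 3.13. EEF1E1-BLOC1S5 had 0 counts in both.

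A ratio between 2 genes of the same libraries does not depend on the scaling. So 13 pairs of members, related by sequence or by role, were compared by the difference of their log2 ratios. Some, such as EIF5B and EIF2S1, are related by role only. All were picked after their values had been seen. The counting interval excluded 0 in 10 of 13, but pairs chosen this way cannot show how often related genes differ. No share over other pairs was computed. EIF3CL minus EIF3C is among the 10, although how reads were shared out between those genes is unsure. EIF4EBP2 minus EIF4EBP1 gave 1.05 (interval 0.87 to 1.23). A GC and length correction can change such a difference, and with it EIF4EBP2 was at 0.16 and EIF4EBP1 at -0.71. EIF4G3 minus EIF4G1 gave 0.90 (interval 0.74 to 1.06). EIF4G2 minus EIF4G1 gave 0.75. Per kilobase, the level of EIF4G2 was 3.10 times that of EIF4G1 in the knockout and 1.84 times in the wild-type library. EIF4EBP1 minus EIF4E, the inhibitor against its target, gave -0.59 (interval -0.75 to -0.43). Their ratio of levels per kilobase was 0.629 in the knockout and 0.946 in the wild-type library. EEF1A2 minus EEF1A1 gave a small difference of 0.16, and EEF1A2 stood at 4.53% of the level of EEF1A1 per kilobase in the knockout and 4.06% in the wild-type library. The intervals of EIF4A2 minus EIF4A1, EIF4E2 minus EIF4E and EIF5A2 minus EIF5A included 0, the last from -0.31 to 0.27.

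**Figure D4:**
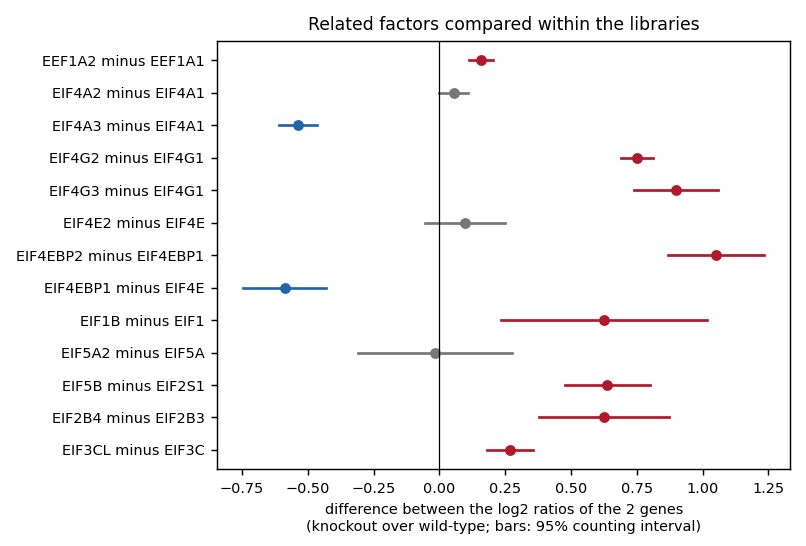
Difference between the log2 ratios (CREB1 knockout over wild-type) of 2 factors related by sequence or by role, with 95% counting intervals. Intervals wholly above 0 are red, those wholly below 0 blue, and the 3 that include 0 grey; the largest difference was 1.05 for EIF4EBP2 minus EIF4EBP1.

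Genes that regulate these factors were examined beside them. Of 35 expressed regulators, 2 were called higher and 3 lower at the smaller threshold (14.3% in all, against 27.2% of all expressed genes), and the median log2 ratio was 0.01, or -0.01 with DESeq2 size factors. GCN1, an activator of the eIF2 kinase GCN2, had 8451 knockout and 6764 wild-type counts and was 1.31-fold higher. PAIP2B, an inhibitor of the poly(A)-binding protein, had 169 knockout and 309 wild-type counts and was 1.74-fold lower. The kinases that phosphorylate eIF4E differed in direction, with MKNK1 at 0.37 and MKNK2 at -0.39. RPS6KB2, an S6 kinase gene, had a ratio of -0.33. The 4 eIF2 kinases, EIF2AK1 to EIF2AK4, lay between -0.14 and 0.05, with intervals that included 0, and MTOR had a ratio of 0.10. Of 7 expressed termination and recycling factors none was called, against the same 27.2% of all expressed genes. PELO (-0.24) and GSPT1 (-0.16) lay farthest from 0.

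In other lists of translation genes most ratios also lay below 0. Of 79 cytosolic ribosomal protein genes, 72 lay below 0, the median was -0.18, and 6 were called lower and 1 higher. The share called lower was 7.59%, under the 13.1% of all expressed genes and the 10.2% of protein-coding genes of at least 10 CPM. Among those called were RPL27 (-0.43), RPS16 (0.41), RPL5 (-0.40) and RPL12 (-0.36). Of 22 cytosolic aminoacyl-tRNA synthetase genes and their scaffolds, 17 lay below 0 with a median of -0.16, and 6 were called lower, namely YARS (-0.54), AARS (-0.47), EPRS (-0.46), CARS (-0.45), IARS (-0.40) and SARS (-0.35). That was 27.3% of the list, against 13.1% of all expressed genes and 10.2% of protein-coding genes of at least 10 CPM called lower. Of 11 mitochondrial translation factors, 9 lay below 0 with a median of -0.12, and MRRF (-0.37) was called lower, which is 9.09% of the list against the same 13.1%. These lists share the 2 libraries and the scaling with the members, and no difference between lists was tested. Total-count scaling moves every ratio up by 0.073, and these lists were not recounted with it.

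**Figure D5:**
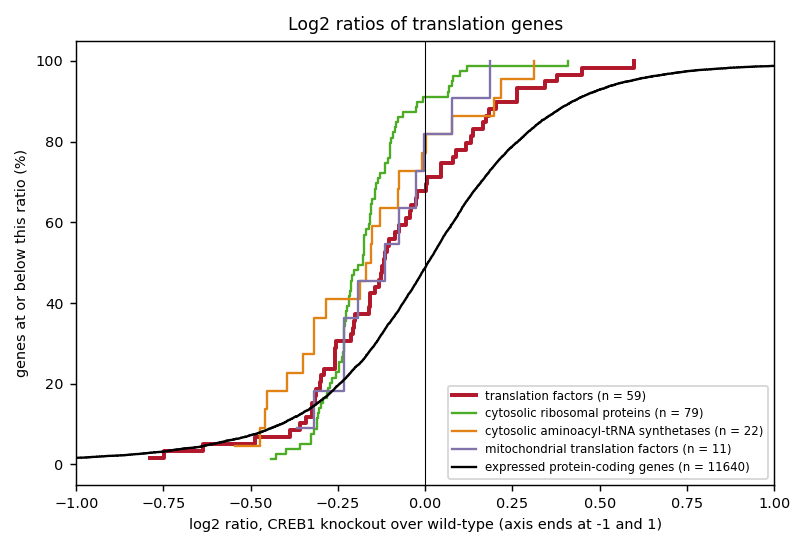
Cumulative share of genes (%) by log2 ratio, CREB1 knockout over wild-type, for the 59 expressed translation factors, 79 ribosomal protein genes, 22 synthetase genes, 11 mitochondrial factors and 11640 expressed protein-coding genes. At 0 the curve of the translation factors has passed 40 of 59 genes, and that of the ribosomal protein genes 72 of 79.

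Because the groups are defined by CREB1, the promoters of members were searched for the cAMP response element, written TGACGTCA, and its shorter form TGACGT, on both strands. Every match to the longer form also holds the shorter. RefSeq windows (GRCh38.p14) from 250 bases before to 50 bases after a start were found for 51 of 64 members, 68 windows in all. The full element was in the window of EEF2 alone, 1 of 68 windows, against 1.85% of all windows and 2.83% of windows of expressed protein-coding genes. The 100 bases before the EEF2 start (chr19:3985464-3985563, minus strand) are shown with that element in capitals.
EEF2: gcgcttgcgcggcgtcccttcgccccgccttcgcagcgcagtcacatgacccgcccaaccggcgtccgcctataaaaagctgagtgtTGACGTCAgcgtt

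The element begins 13 bases before the start, and EEF2 had a log2 ratio of -0.20. The shorter form was in 9 of 68 windows (13.2%), against 7.98% of all windows and 10.6% of those of expressed protein-coding genes. Besides EEF2 these were windows of EIF3D, EIF4A1, EIF4E3, EIF4EBP2, EIF4EBP3, EIF5 and EIF5A. The same EIF5A match lies in overlapping windows and is counted for each. By gene, the shorter form was found for 8 of 51 members with a window (15.7%). That stands against 14.3% of expressed protein-coding genes with a window and 9.64% of all genes with one. To show how the letters sit in promoters of members with ratios of either sign, 4 stretches of 30 bases are given with the match, on either strand, in capitals (EIF4A1 chr17:7572701-7572730, EIF4EBP2 chr10:70404078-70404107 and EIF5A chr17:7307940-7307969, plus strand; EIF3D chr22:36529351-36529380, minus strand).
EIF4A1: gactaggaactaACGTCAtgccgagttgct
EIF4EBP2: cgccccgcggcgACGTCAcctccggccgac
EIF5A: gggttggcccggTGACGTtggagcgacgca
EIF3D: ccggataccgccTGACGTagtgccaatcac

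Of these, EIF4EBP2 had a positive ratio (0.26) and EIF4A1 (-0.21), EIF5A (-0.32) and EIF3D (-0.30) had negative ones. The windows found for EIF4G1 and EIF4A3 held neither form, and no window was found for EIF4EBP1. A still shorter run, TGACG, which every match to TGACGT also holds, was searched too. It was in 28 of 68 windows of members (41.2%), that of EIF4A3 among them. The share was 24.6% of all windows and 32.2% of those of expressed protein-coding genes. By gene it was 45.1% of members with a window, against 41.3% of expressed protein-coding genes with one. A match is a run of letters and does not show binding.

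Several members are known for mRNAs that begin with a C followed by a run of C and T letters, the terminal oligopyrimidine tract through which mTORC1 and LARP1 control their translation. A start with C and at least 4 such letters in a row was found in 13 of 68 windows (19.1%), against 5.45% of all windows and 6.62% of those of expressed protein-coding genes. Of the 10 members known for this kind of mRNA, 6 had a window. The start windows of the 5 of these with such a tract, of EEF1G, whose listed start has none, and of EIF4A3 are given from 10 bases before to 15 bases into the transcript, with the C and T run from the start in capitals (EEF1A1 chr6:73521018-73521042, EEF2 chr19:3985449-3985473, EEF1G chr11:62573877-62573901 and EIF4A3 chr17:80147114-80147138, minus strand; EEF1B2 chr2:206159885-206159909, EIF3F chr11:7987327-7987351 and EIF4B chr12:53006446-53006470, plus strand). For EEF1B2 a second listed start, not shown, has no tract.
EEF1A1: cgtgaacgttCTTTTTCgcaacggg
EEF1B2: ctcttcgggtCCTTTTTCCTCTCTT
EEF2: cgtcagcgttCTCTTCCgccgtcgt
EIF3F: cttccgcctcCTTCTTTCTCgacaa
EIF4B: tcatccgggtCTTTTgcgttctctt
EEF1G: cgggcggcttactttgcggcagcgc
EIF4A3: cggcagcggcacagcgaggtcggca

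The 12 expressed members with such a start had a median log2 ratio of -0.14, with 10 below 0. The 34 with a window and no such start had a median of -0.12, with 23 below 0. The 10 members known for this kind of mRNA, EEF1A1, EEF1A2, EEF1B2, EEF1D, EEF1G, EEF2, EIF3E, EIF3F, EIF3H and EIF4B, had ratios between -0.32 and 0.09 with a median of -0.11. The median over all expressed members was -0.12.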

How the data were processed

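The authors deposited a table of expected counts per gene, estimates of reads that need not be whole and are not scaled between libraries. The submitters' processing notes name RSEM 1.2.26, STAR 2.4.2a, cutadapt 2.0 and hg19. No annotation release, strand setting or filter is named in the sources used here. RSEM divides reads that fit several genes, so near-identical genes are uncertain. Names, biotypes, gene order and transcript lengths came from GENCODE 29 (GRCh38) by Ensembl identifier, which matched 52338 of 57820 identifiers; unmatched ones held 35.2% of the knockout and 37.0% of the wild-type counts and stayed in the totals. No columns were left unmapped.

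Counts were rounded and scaled with TMM (edgeR 4.0.16, R 4.3.3). Log2 ratios used a prior count of 0.5, and Clopper-Pearson 95% intervals came from the conditional binomial of the 2 counts. Intervals of pairs of genes are Wald intervals of the log odds ratio. Intervals, and the floor of 3 counts behind a count of 0, cover counting error only. Being expressed meant a mean CPM of at least 1. Levels per kilobase used the transcript of median length among a gene's complete protein-coding transcripts, not the authors' effective lengths. The script was tested on simulated counts.

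With 1 library per group, p-values were not computed. The members, lists and comparisons were chosen with earlier results of these data known. Every member could be named; of other lists, up to 6 called genes farthest from 0, or the 2 farthest where none was called, except that some ribosomal protein genes are not reported here by name; RPTOR, EIF2AK1 to EIF2AK4 and MTOR were named after their values were seen. The marker PECAM1 was not analysed here. Alternatives were total-count, DESeq2 1.42.0 and protein-coding TMM scaling, a GC and length correction, and a prior count of 2. Others were no filter on low counts or a minimum of 5 CPM, the mean, and leaving out members listed by hand as having close relatives or copies.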

Additional observations from a re-analysis of the deposited data

How the results depend on the processing

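No replicate could be left out, and no paired analysis was possible because each group has 1 library. Most recomputed ratios of single members kept within their counting intervals, but this includes a prior count of 2 and protein-coding TMM scaling, which changed no call. With total-count scaling the ratios of many members left their counting intervals. Among these were EEF1A1 at -0.04, EEF2 at -0.13, EIF4G1 at -0.56 and EIF4A3 at -0.68. With total-count scaling, the median log2 ratio was -0.04464 for the expressed members, -0.00223 for the eIF3 genes and -0.04142 for the elongation factors, each nearer 0 than with TMM by the 0.073 that this scaling adds to every gene. The number of members called at 2-fold was 1, EIF4EBP3, without the filter on low counts, and 0 under the other alternatives. The number called at the smaller threshold lay between 9 and 14, with 6 lower and 3 higher after the GC and length correction and 11 lower and 3 higher with DESeq2 size factors. Members listed by hand as having close relatives or copies, such as EIF4A1, EIF4A2, EEF1A1 and EEF1A2, were also left out. That gave a median of -0.12 over 45 members. The mean over all expressed members was -0.10. With EIF3C and EIF3CL counted as 1 gene, an alternative chosen after seeing the data, the eIF3 median was -0.12. The median of the regulators was 0.08 with total-count scaling, and -0.01 both with DESeq2 size factors and after the GC and length correction. No called member changed sign under the 5 alternatives run on single genes. Total-count scaling changed 7 calls, the GC and length correction 6, DESeq2 size factors 3, and the other alternatives none. EIF4EBP1, EIF4A3, EIF4G1, EIF2B3, EIF1B, EIF3CL and EIF5B kept their calls throughout those 5. Depth limits EIF1B, EIF4E3, EIF5A2, EEF1AKMT1, EEF1AKMT3 and the members under 1 CPM, whose intervals are wide.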
